A study of Homo sapiens with 28 samples.

Results

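The regions described here are sites of open chromatin that ranked among the strongest peaks of AN3CA cells with wild-type ARID1B, and not among those of cells with wild-type ARID1A or an empty vector. They number 1525 of 32972 merged regions (4.63%). AN3CA is an established human endometrial carcinoma cell line, and ATAC-seq maps its open chromatin with a transposase that inserts adapters into accessible DNA. Each of the 28 deposited peak lists was trimmed to its 19433 most significant peaks on chromosomes 1 to 22 and X. Overlapping peaks of all lists were merged, and merged regions hit by at least 2 lists were kept. A library calls a region if any of its trimmed peaks overlaps it. The 1525 regions were chosen by the calls of the wild-type and empty vector libraries, as those called by both ARID1B_WT libraries and by none of the 2 ARID1A_WT and 4 Empty_vector libraries. Those calls are therefore a description. The 20 libraries of altered constructs took part in the merging but not in the choice.

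All groups are AN3CA cells expressing a construct. Per the titles, they carried an empty vector (4 libraries), wild-type ARID1A or ARID1B, or 1 of 10 altered constructs, with 2 libraries for each group other than the empty vector. ARID1A_DBDmut has a mutated ARID domain, ARID1A_CBR and ARID1A_delIDR1 are truncated, and in the hybrid ARID1A_DDX4 the intrinsically disordered region comes from DDX4. ARID1A_Y42S, ARID1A_AQGscramC1C2, ARID1B_S320_G327del, ARID1B_A457_G461del, ARID1B_Block13del and ARID1B_Block9del are named as in the titles. The genotype label of 10 libraries (ARID1A_Y42S, ARID1A_AQGscramC1C2, ARID1B_A457_G461del, ARID1B_Block13del and ARID1B_Block9del) names an empty vector control, while the titles and the peak names carry the construct, so each statement on these 5 rests on the title. The sources used here do not give the promoter, the level of each expressed protein or the state of the cells' own ARID1A and ARID1B genes. The labels do not say whether replicates were separate cultures, so the spread between libraries may be technical.

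ARID1A and ARID1B are the large subunits that define the canonical BAF (cBAF) complex, a remodeler that uses ATP to slide and evict nucleosomes and so exposes enhancers. A complex holds either ARID1A or ARID1B. Both proteins carry an ARID domain, which binds DNA, and long intrinsically disordered stretches, and ARID1A is among the genes most often mutated in endometrial carcinoma. The series title concerns the local condensation of cBAF by these subunits. The question taken up here is which altered proteins keep the sites that set wild-type ARID1B apart.

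Library facts bear on every value below. The names of the peaks carry date codes, which divide the libraries into 6 groups, called runs A to F here. The labels do not say which step of the work the codes date. Both ARID1B_WT libraries and both ARID1B_S320_G327del libraries are from run C together with 2 Empty_vector libraries, while the ARID1A_WT libraries are from runs A and B. No run holds both wild types, so for the 1525 regions the choice of protein and the run cannot be told apart. Library 1 of ARID1A_WT, ARID1A_CBR, ARID1A_DBDmut, ARID1A_delIDR1 and Empty_vector is from run A and library 2 from run B. The SD of these ARID1A constructs thus spans 2 runs, while the libraries of each other altered construct share 1 run. The lists were deposited with 19489 to 76589 peaks, and the last peak kept after trimming had a −log10 p-value of 5.39 to 28.6. Read depth is unknown, and a rank says only where a peak stands within its own list.

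The rule alone gave these ranks and fold enrichments. In ARID1B_WT 1 the regions had a median rank of 14282 (2203 to 19426), and in ARID1B_WT 2 a median rank of 13336 (2563 to 19432), where rank 1 is the most significant peak. They thus stood in the weaker part of the trimmed lists. Fold enrichment is the authors' ratio of a peak's signal to the background of the caller. Its median over the 1525 regions was 6.66 in ARID1B_WT 1 and 7.00 in ARID1B_WT 2. The 1905 regions called by all 4 wild-type libraries and by no Empty_vector library, called the shared gain below, had medians of 6.50 and 6.89 in the same lists. The 1525 regions thus had folds like those of the shared gain but lower ranks, since the shared gain had median ranks of 9418 and 8886. They were also narrower, with a median merged width of 710 bp (224 to 2708 bp) against 974 bp for the shared gain and 977 bp for all regions.

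The word "only" in the definition held for the strongest peaks and not for the presence of a peak. In the ARID1A_WT lists at full length, 99.6% of the 1525 regions had a peak in ARID1A_WT 1 and 97.9% in ARID1A_WT 2. These lists hold a peak at 98.4% and 96.0% of all merged regions, so the shares are near that background. Peaks in both were found at 1491 regions, and 4 regions had none in either. The median rank of these peaks was 29131 in ARID1A_WT 1 and 29218 in ARID1A_WT 2. Their median fold was 4.78 and 4.56, below the 5.55 and 5.43 of the shared gain in the same lists. The 4 Empty_vector lists at full length held far fewer of the regions, at 6.56%, 8.85%, 2.03% and 3.08% in libraries 1 to 4, against 65.9% to 80.2% of all merged regions. The rule had already removed every region with a trimmed Empty_vector peak, so this gap comes in part from the choice. No Empty_vector list held 1377 of them (90.3%), and 1344 regions had a peak in both ARID1A_WT lists and in no Empty_vector list. Most of these sites thus had a peak with either wild-type protein and none with the empty vector. Because the lists differ in length, no change in accessibility can be read from the ranks.

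**Figure D1:**
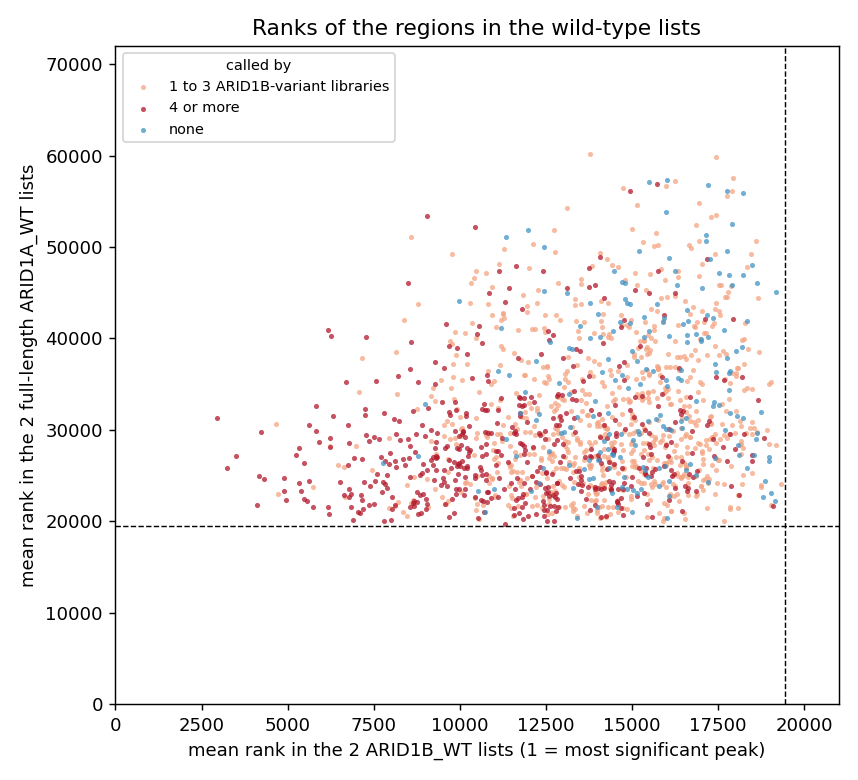
Each point is 1 of the 1491 regions with a peak in both full-length ARID1A_WT lists; the x axis is its mean rank in the 2 ARID1B_WT lists, the y axis its mean rank in the 2 full-length ARID1A_WT lists, and dashed lines mark the trimmed length of 19433. Colours give the number of ARID1B-variant libraries that call the region in trimmed lists; the median is 13920.5 on the x axis and 29197.5 on the y axis, and the rule sets the side of the lines on which the points lie.

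Some regions sat close to the threshold. At 230 regions (15.1%) the worse of the ARID1B_WT ranks lay within 1000 places before it, and at 130 (8.52%) the better ARID1A_WT rank lay within 1000 places after it. The members just inside were chr10:73874347-73875390 (ranks 17028 and 19432 in ARID1B_WT 1 and 2), chr7:99541166-99541896 (16904 and 19428) and chr2:27471976-27472696 (19426 and 10062). Just outside were chr6:144599735-144600338 (19440 and 13613), chr2:238503203-238504244 (19457 and 16005) and chr2:202843672-202844239 (19459 and 18586).

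A wild-type library left out of the choice gives a measure that it did not set. When each ARID1B_WT library was left out in turn, it called 69.3% and 74.8% of the regions chosen without it (72.0% ± 3.94, SD, n = 2). An ARID1A_WT library left out in this way called 16.0% and 15.7% of its regions (15.9% ± 0.197, SD, n = 2). For Empty_vector the values were 0.196% to 0.716% (0.489% ± 0.240, SD, n = 4). All 28 trimmed lists called 55.3% to 58.6% of all merged regions. The other library of the same protein still helped to choose each set, so these values keep part of the choice.

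Among the altered ARID1B proteins, calls of the 1525 regions fell into an order that the libraries of a construct shared. ARID1B_S320_G327del called 68.0% and 68.6% of them (68.3% ± 0.417, SD, n = 2). ARID1B_A457_G461del called 49.8% and 50.7% (50.3% ± 0.603, SD, n = 2). ARID1B_Block13del called 6.30% and 5.97% (6.13% ± 0.232, SD, n = 2), and ARID1B_Block9del 0.590% and 0.525% (0.557% ± 0.0464, SD, n = 2). No libraries of neighbours in this order overlapped, and each gap was larger than the spread of the libraries. Of all merged regions these constructs called 57.1%, 58.1%, 58.3% and 58.2% in the same order, and the Empty_vector libraries 57.6% to 58.4%. The share of ARID1B_S320_G327del on the 1525 is near that level and that of ARID1B_A457_G461del under it, while ARID1B_Block13del and ARID1B_Block9del lie far below. The rule required both ARID1B_WT libraries to call the 1525 regions, so wild-type calls there are no reference. On the 2202 regions chosen without ARID1B_WT 1, that library called 69.3%, ARID1B_S320_G327del 64.4% and 63.8%, and ARID1B_A457_G461del 45.3% and 47.0%. On the 2038 chosen without ARID1B_WT 2, the values were 74.8%, 65.1% and 65.8%, and 46.4% and 46.5%. Both deletions thus lay below the left-out library, ARID1B_S320_G327del by less. With 2 libraries per construct, no test of a pair of constructs was made. A share for 1 library has a 95% Wilson interval of at most 2.51 percentage points to either side, for counting error only. The order was not particular to the 1525 regions. Of the shared gain the 4 constructs called 94.6%, 81.9%, 31.0% and 3.44% in the same order. On the regions ranked up only with ARID1A_WT the values were 52.1%, 15.6%, 3.90% and 2.42%.

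The altered ARID1A proteins rarely called the same regions. The 12 libraries lay between 0.393% and 1.84%, with a median of 1.02%. ARID1A_delIDR1 was at 1.70% ± 0.0927, ARID1A_DBDmut at 1.44% ± 0.556, ARID1A_DDX4 at 1.08% ± 0.232, ARID1A_Y42S at 1.02% ± 0.881, ARID1A_CBR at 0.918% ± 0.0927 and ARID1A_AQGscramC1C2 at 0.459% ± 0.0927 (SD, n = 2 each). Neighbours in this order overlapped, except ARID1A_CBR and ARID1A_AQGscramC1C2, and ARID1B_Block9del lay among them. Of all merged regions the altered ARID1A constructs called 56.7% to 58.6%. The small shares moved by over 1.5 times when single libraries were left out of the rule. Without ARID1A_WT 1 or 2, ARID1A_DBDmut was at 2.97% or 2.54% and ARID1A_delIDR1 at 3.19% or 3.23%, and ARID1A_CBR was at 1.65% without ARID1A_WT 1. Without ARID1B_WT 1 or 2, ARID1A_CBR was at 1.499% or 1.55%, ARID1A_AQGscramC1C2 at 0.908% or 0.981% and ARID1B_Block9del at 0.931% or 0.932%. Without ARID1B_WT 1, ARID1A_delIDR1 was at 2.63%, ARID1A_DDX4 at 1.73% and ARID1A_Y42S at 1.70%, and without Empty_vector 4, ARID1A_AQGscramC1C2 was at 0.911% and ARID1B_Block9del at 1.20%. No altered ARID1A construct passed 3.23% when a library was left out. The mean over the 4 altered ARID1B constructs was 31.3% (SD over constructs 33.2) and that over the 6 altered ARID1A constructs 1.10% (SD over constructs 0.432), a difference of 30.2 percentage points. That difference rests on ARID1B_S320_G327del and ARID1B_A457_G461del. Without ARID1B_S320_G327del it was 17.9.

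**Figure D2:**
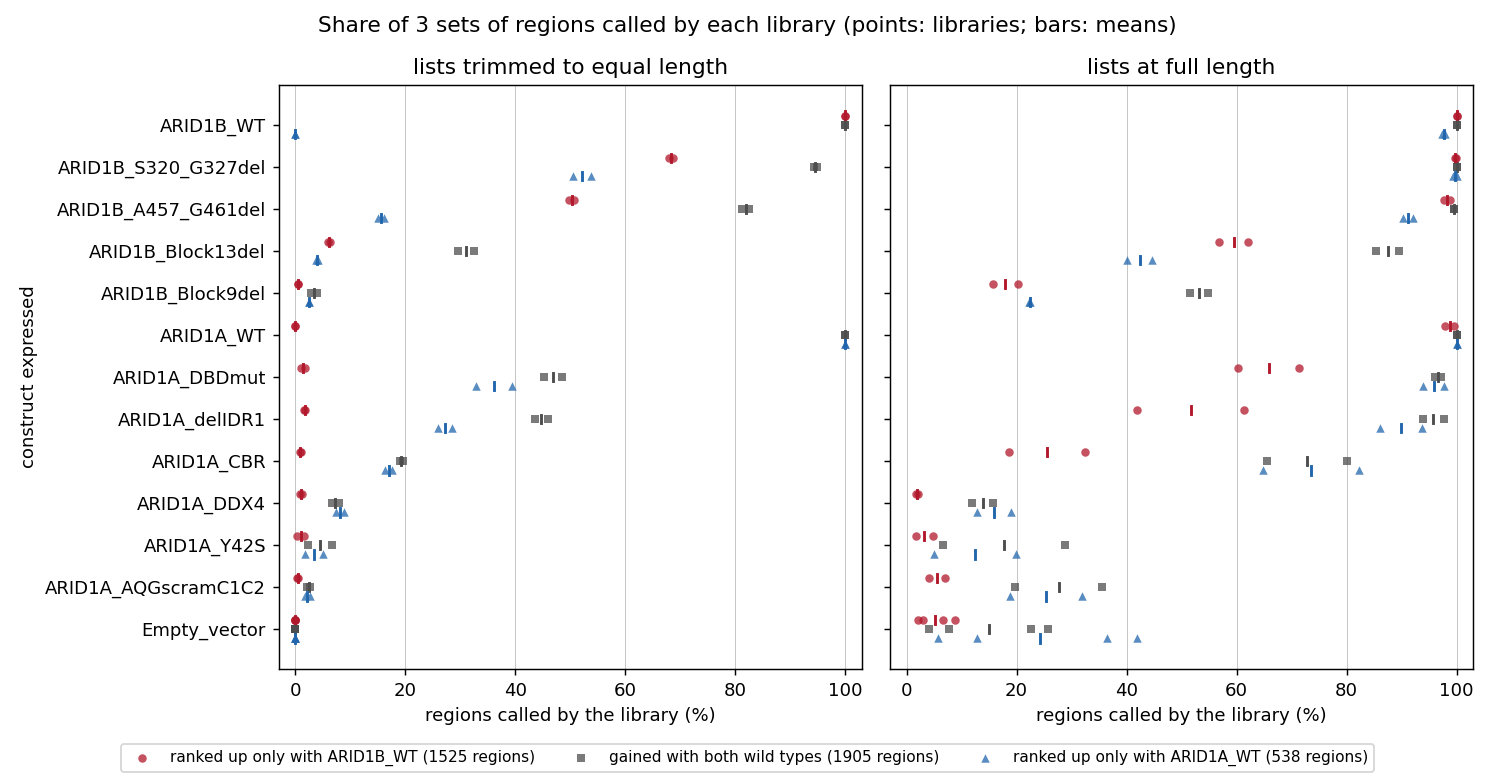
The x axis is the percent of regions that a library calls, with trimmed lists on the left and full-length lists on the right, and each row is a construct; points are libraries, vertical ticks are their means, and colours are the 1525 regions ranked up only with ARID1B_WT, the 1905 of the shared gain and the 538 ranked up only with ARID1A_WT. In trimmed lists the 1525 regions stand at 68.3% and 50.3% with the ARID1B_S320_G327del and ARID1B_A457_G461del constructs and under 2% with each altered ARID1A construct; values of the wild types and Empty_vector are set by the rule.

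Runs do not coincide with this order in every case. Run E holds 3 of the ARID1B deletions and ARID1A_Y42S, and within it the 6 libraries of the deletions spanned 0.525% to 50.7% while the ARID1A_Y42S libraries were at 0.393% and 1.64%. ARID1B_A457_G461del, at 49.8% and 50.7%, is thus from another run than ARID1B_WT. ARID1A_Y42S is the sole altered ARID1A construct of run E and called only 4.49% ± 3.01 (SD, n = 2) of the shared gain. Its library 2 is also the shortest of all lists. Its low share on the 1525 thus cannot stand for altered ARID1A proteins in general. The altered ARID1A constructs of runs A and B, the runs of ARID1A_WT, were at 0.852% to 1.84%. ARID1B_S320_G327del shares run C with ARID1B_WT, so its high share cannot be told apart from the run. The 2 Empty_vector libraries of run C both called 668 regions (2.03% of all) that no other Empty_vector and no ARID1A_WT library called, and the part of the run in the 1525 was not tested. Of these, 550 were called by no ARID1B_WT library. With the Empty_vector libraries of run C as the sole controls, the rule chose 1538 regions.

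Each merged region was then tested by itself, with the number of altered-ARID1B libraries (of 8) and altered-ARID1A libraries (of 12) that call it. No region passed at an adjusted p under 0.05 (Fisher's exact test, two-sided, Benjamini-Hochberg adjusted over 32972 regions), so 0 of the 1525 passed and the background was 0% in both directions. The smallest adjusted p was 0.0872 over all regions and 0.166 among the 1525. Full separation of the 8 from the 12 libraries gives an unadjusted p of 7.94e-06 in this test. Over all regions 3 reached it and still did not pass, so the lack of passing regions says little about a single region. At an unadjusted p under 0.05, 707 of the 1525 regions (46.4%) were called more often by altered ARID1B libraries, against 2309 of all regions (7.00%). In the other direction 0 of the 1525 passed at that threshold, against 1135 of all regions (3.44%). The same counts were 595 of 1905 (31.2%) and 1 for the shared gain, and 13 of 538 (2.42%) and 6 for the regions ranked up only with ARID1A_WT. The unadjusted counts treat the libraries of a construct as independent. With constructs as units the 707 became 23, against 131 of all 32972 regions. Without ARID1B_S320_G327del they became 127, against 579 of all regions. Leaving out any 1 of the 12 altered ARID1A libraries gave 469 to 473, against 1470 to 1604 of all regions. Among the 707, 238 regions sat just under the threshold (Fisher's exact test, two-sided, unadjusted p = 0.0491). They were called by 3 altered ARID1B libraries and no altered ARID1A library.

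The same altered proteins were scored on the other region sets. On the shared gain, ARID1A_DBDmut called 46.9% ± 2.30, ARID1A_delIDR1 44.7% ± 1.67 and ARID1A_CBR 19.3% ± 0.297 (SD, n = 2 each), so these constructs did place sites of the shared gain among their strongest peaks. On the 538 regions ranked up only with ARID1A_WT they called 36.2% ± 4.60, 27.2% ± 1.71 and 17.0% ± 0.920. In both sets every library of these 3 constructs lay above every value they reached on the 1525 regions. ARID1B_S320_G327del called 94.6% ± 0.483 of the shared gain and 52.1% ± 2.23 of the ARID1A_WT set, against its 68.3% here. ARID1B_A457_G461del called 81.9% ± 1.002 and 15.6% ± 0.789, against its 50.3% here. ARID1B_A457_G461del and ARID1B_Block13del, with 3.90% ± 0.263 on the ARID1A_WT set, thus called the ARID1B_WT set more often than the ARID1A_WT set, as did ARID1B_S320_G327del, whereas the 3 ARID1A constructs did the opposite. ARID1B_Block9del went with the latter, at 0.557% and 2.42%. The 3 ARID1A constructs are from runs A and B, the runs of ARID1A_WT, so their construct and run cannot be told apart here. The sets were chosen with the wild types of opposite kind and these differences were not tested. The other altered ARID1A constructs called little of the shared gain. ARID1A_DDX4 was at 7.24% ± 0.891, ARID1A_Y42S at 4.49% ± 3.01 and ARID1A_AQGscramC1C2 at 2.44% ± 0.408 (SD, n = 2 each). Their low shares were thus not confined to the 1525 regions.

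A further 4289 regions were called by no ARID1A_WT and no Empty_vector library and were not among the 1525. On these, ARID1B_S320_G327del called 36.0%, ARID1B_A457_G461del 19.7%, ARID1B_Block13del 9.87% and ARID1B_Block9del 10.6%. The altered ARID1A constructs called 10.7% of them on average. Block13 and Block9 deletions thus called these other regions more often than the 1525. Each of the 4289 had to be called by at least 1 altered library to enter the merged set, which the 1525 did not, so the shares are not on equal terms.

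Strength in ARID1B_WT went with the calls of ARID1B_S320_G327del, ARID1B_A457_G461del and ARID1B_Block13del, but not of ARID1B_Block9del. The 1525 regions were divided into 4 groups by mean rank in ARID1B_WT, with limits at 11431, 13943 and 15969. From the best to the weakest group, ARID1B_S320_G327del called 89.8%, 71.5%, 60.2% and 51.6%. ARID1B_A457_G461del called 75.3%, 52.6%, 40.2% and 32.9%, and ARID1B_Block13del 13.5%, 5.25%, 3.54% and 2.23%. ARID1B_Block9del, which is not plotted, did not fall, at 0.131%, 0.394%, 1.05% and 0.656%. The altered ARID1A constructs in the plot by rank group showed no such fall, and ARID1A_DBDmut was at 1.70%, 1.31%, 1.18% and 1.57%. In the same rank limits, the shared gain held 1255, 311, 214 and 125 regions. Of these ARID1A_DBDmut called 52.0%, 37.0%, 34.1% and 42.8%, and ARID1A_delIDR1 49.8%, 36.7%, 32.5% and 34.8%. At like rank in ARID1B_WT, both constructs called the shared gain far more often than the 1525 regions, in every group. The rule required ARID1A_WT calls for the shared gain and excluded them for the 1525, so this gap comes in part from the choice. Both constructs also share runs A and B with ARID1A_WT, and the part of the run was not tested.

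**Figure D3:**
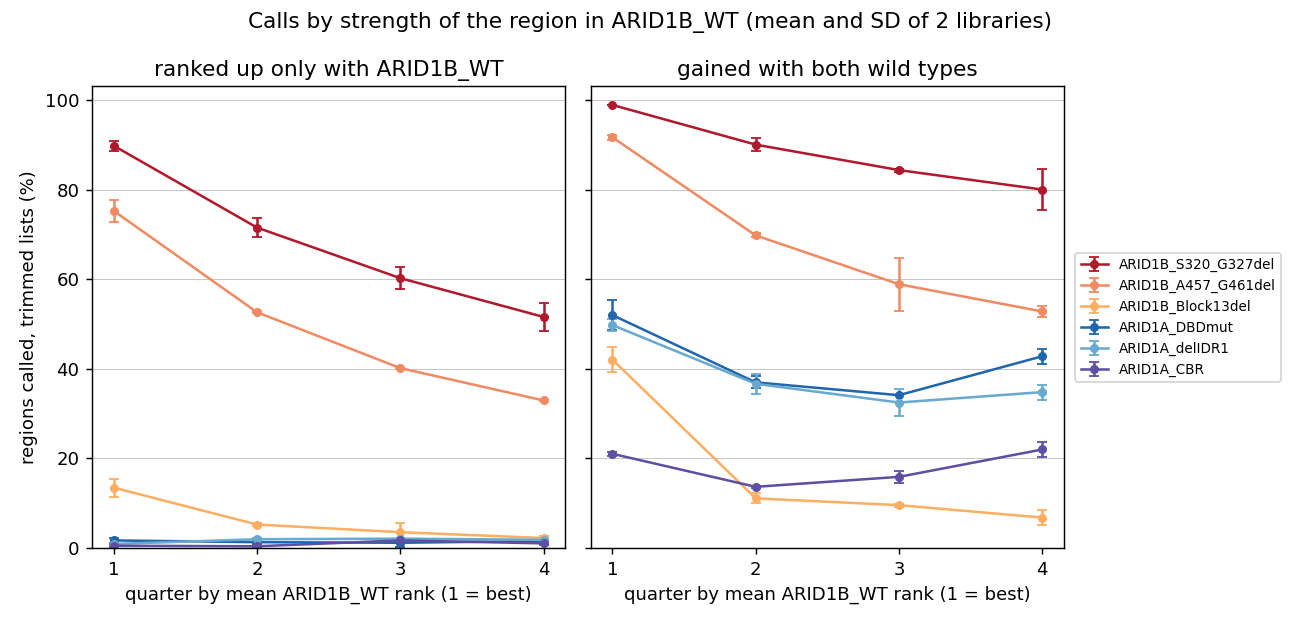
The x axis is the group by mean ARID1B_WT rank (1 is the best) and the y axis the percent of its regions called in trimmed lists; points are means and bars the SD of 2 libraries, for the 1525 regions on the left and the shared gain in the same rank limits on the right. ARID1B_S320_G327del falls from 89.8% to 51.6% and ARID1B_A457_G461del from 75.3% to 32.9% on the left, where the 3 ARID1A constructs stay near 0. On the right they fall from 98.9% to 80.0% and from 91.7% to 52.8%, and ARID1A_DBDmut lies between 34.1% and 52.0%.

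Region by region, the ARID1B deletions called overlapping sets. Both ARID1B_S320_G327del libraries called 871 regions (57.1%, against 50.6% of all merged regions), and both ARID1B_A457_G461del libraries called 620 (40.7%, against 51.4% of all). The S320_G327del share is near that of all regions and the A457_G461del share is below it, so neither is read as an excess at the 1525. The rule removed regions called by Empty_vector from the 1525 but not from all regions, so these shares are not on equal terms. Both constructs called 477 regions, which is 54.8% of the first set and 76.9% of the second. Both ARID1B_Block13del libraries called 31 regions (2.03%, against 52.0% of all), of which 29 were also called by both ARID1B_A457_G461del libraries and 24 by both ARID1B_S320_G327del libraries. ARID1B_Block9del called 4. No region was called by all 8 libraries.

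At least 1 altered ARID1A library called 97 of the 1525 regions (6.36%, against 82.7% of all merged regions), and 52 of the 97 were called by a single one. The rule removed every region called by an ARID1A_WT or Empty_vector library. The gap between 6.36% and 82.7% therefore comes in part from the choice. The 97 differed from the whole set in the empty vector: 55.7% had a peak in at least 1 full-length Empty_vector list, against 9.70% of all 1525, the 97 included. Their median width was 807 bp, and their peaks in full-length ARID1A_WT lists had a median rank of 24354, against 29181 for all 1525. Both ARID1B_S320_G327del libraries called 46.4% of the 97 and 57.8% of the other 1428. For ARID1B_A457_G461del the values were 47.4% and 40.2%. Regions called by both libraries of both deletions and by no altered ARID1A library numbered 445.

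**Figure D4:**
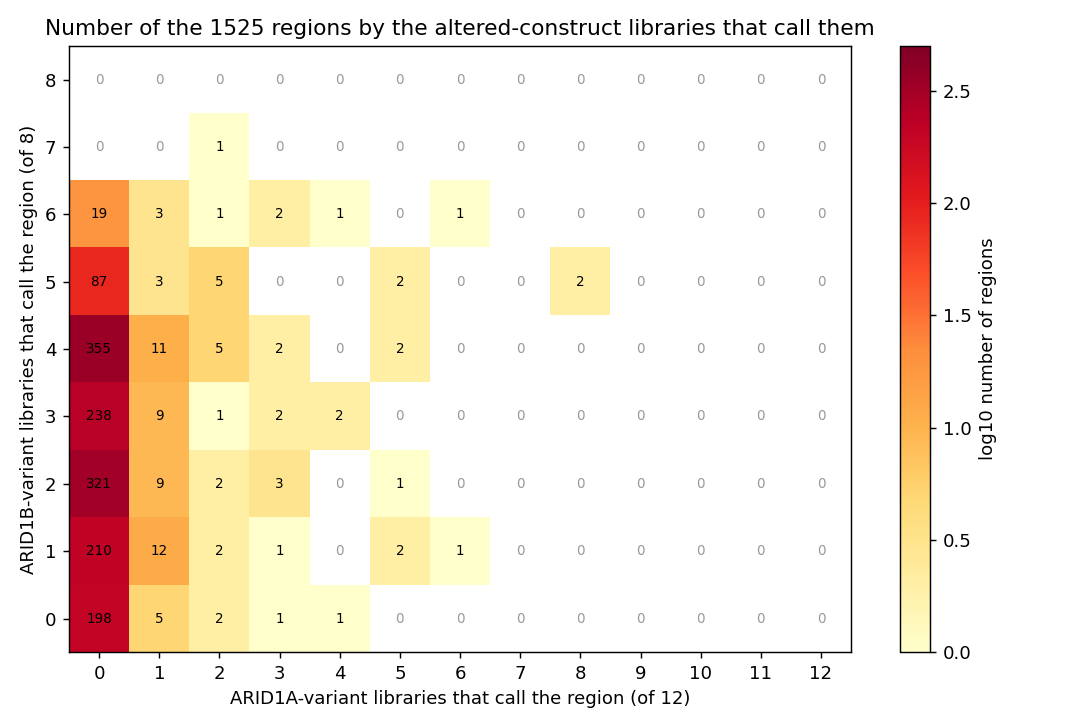
The grid counts the 1525 regions by the number of altered ARID1A libraries (x axis, of 12) and altered ARID1B libraries (y axis, of 8) that call them, with colour on a log10 scale. The left column holds 1428 regions called by no altered ARID1A library, with 355 called by 4 altered ARID1B libraries and 198 by none.

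No altered construct called 198 of the 1525 regions (12.98%, against 1.81% of all merged regions). The ARID1B_WT calls of the rule already placed each of the 1525 in the merged set, without need of an altered library. The rule also removed regions called by ARID1A_WT or Empty_vector, so these shares are not on equal terms. The 198 were narrower, with a median width of 569.5 bp. They ranked lower in ARID1B_WT, with a median mean rank of 15482 against 11583 for the 477 called with both ARID1B_S320_G327del and ARID1B_A457_G461del. Their median fold in ARID1B_WT was 7.16, against 6.70 for the 477. A low rank here did not go with a low fold. The best-ranked of the 198 were chr7:32132922-32133655, chr10:126389833-126390329, chr12:59281943-59282247, chr14:75049745-75050394 and chr2:62405851-62406521, with mean ranks of 7772, 8774, 8979, 9980 and 10539 (of 19433). At full length all 5 had a peak in both libraries of ARID1B_S320_G327del and of ARID1B_A457_G461del, so the lack of a call concerned rank.

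Full-length lists separated the constructs in another way. With ARID1B_S320_G327del 99.8% ± 0.0464 of the 1525 regions had a peak and with ARID1B_A457_G461del 98.3% ± 0.742 (SD, n = 2 each), near the 98.8% ± 1.21 of ARID1A_WT. In the same lists 93.2%, 92.7% and 97.2% of all merged regions had a peak, so these 3 shares are near the background. ARID1A_DBDmut followed with 65.8% ± 7.88, ARID1B_Block13del with 59.4% ± 3.66, ARID1A_delIDR1 with 51.6% ± 13.8, ARID1A_CBR with 25.6% ± 9.78 and ARID1B_Block9del with 17.9% ± 3.20. Of all merged regions these 5 held 93.6%, 80.9%, 91.3%, 87.2% and 74.8%, each far above its share of the 1525. The libraries of ARID1A_DBDmut, ARID1B_Block13del and ARID1A_delIDR1 overlapped. ARID1A_AQGscramC1C2 had 5.51% ± 2.04, ARID1A_Y42S 3.21% ± 2.23 and ARID1A_DDX4 1.93% ± 0.232, within or under the 2.03% to 8.85% of Empty_vector, beside 75.4%, 63.5% and 61.9% of all regions. List length moves with these shares in part. ARID1B_Block13del had lists of 33259 and 31418 peaks, shorter than those of ARID1A_CBR with 45159 and 66013 and those of Empty_vector 1 and 2 with 45286 and 49528, and held more of the regions than each of these. No altered ARID1A list held 245 of the 1525.

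Enrichment of the peaks at these regions also differed from list to list. In the libraries of ARID1B_S320_G327del the median fold at the regions was 6.17 and 6.04, against 6.51 and 6.24 at the shared gain. In those of ARID1B_A457_G461del it was 6.13 and 6.25, against 6.42 and 6.67. In the libraries of ARID1A_DBDmut, over the 1089 and 919 regions with a peak, it was 4.13 and 4.31, against 5.15 and 5.08. A small distance to the shared gain was not particular to these ARID1B deletions: ARID1A_DDX4, with a peak at 27 and 32 of the regions, had 3.61 and 3.74 against 3.73 and 3.87, and Empty_vector 3 had 4.04 against 4.10. Folds were compared within a list alone, and regions without a peak have no value.

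The regions with the best mean rank in ARID1B_WT illustrate the pattern, with the 10 best spanning 444 to 1765 bp and mean ranks of 2955.5 to 4895. The first, chr10:46973973-46975737, had ranks of 2203 and 3708 and folds of 4.27 and 4.19 in ARID1B_WT 1 and 2. In the full-length ARID1A_WT lists it stood at 32874 and 29686, with folds of 3.03 and 3.05. Both libraries of ARID1B_S320_G327del and of ARID1B_A457_G461del and 1 of ARID1B_Block13del called it. It is a wide region of modest fold.

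The next, chr7:130335460-130335903, was the narrowest of the 10 at 444 bp and the most enriched, with folds of 10.4 and 12.3 in ARID1B_WT 1 and 2 (ranks 3931 and 2563). Its folds were 9.49 and 10.4 with ARID1B_A457_G461del, 8.26 and 9.13 with ARID1B_S320_G327del and 6.41 and 8.04 with ARID1B_Block13del. With ARID1A_WT they were 6.36 and 5.81, at ranks 28213 and 23386. No altered ARID1A list and no Empty_vector list had a peak there even at full length. The region thus had peaks with every ARID1B construct except ARID1B_Block9del, and with no ARID1A construct other than the wild type.

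At chr10:89453580-89454454, both libraries of the S320_G327del, A457_G461del and Block13del constructs and no altered ARID1A library called the region (Fisher's exact test, two-sided, unadjusted p = 0.000722, adjusted p = 0.166). This p, the smallest among the 1525, was shared by 19 of them. At chr10:89453580-89454454 the folds in ARID1B_WT were 6.86 and 7.48, and those in ARID1A_WT 4.54 and 4.73. At chr3:149996608-149997220 the deletions parted, as both ARID1B_S320_G327del libraries called it and no other altered library did, with folds of 9.10 and 8.45. Both ARID1B_A457_G461del libraries had a weaker peak there, with folds of 7.27 and 6.68. Of the 10 best regions, both ARID1B_S320_G327del libraries called 10, both ARID1B_A457_G461del libraries 8, at least 1 ARID1B_Block13del library 5, and no ARID1B_Block9del and no altered ARID1A library any. None of the 10 had a peak in a full-length Empty_vector list.

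The 4 regions without a peak in any ARID1A_WT or Empty_vector list at full length were chr5:149987572-149988031, chr7:120844517-120845001, chr2:43108307-43108651 and chr7:130872123-130872474. They lay near the threshold, with mean ARID1B_WT ranks of 15587, 16083, 17604 and 17939, and were 345 to 485 bp wide. All 4 had full-length peaks in both libraries of ARID1B_S320_G327del and of ARID1B_A457_G461del. At the first of them the folds were 5.75 and 6.73 in ARID1B_WT, 4.41 and 4.71 in ARID1B_S320_G327del and 4.40 and 4.90 in ARID1B_A457_G461del. At the first and the second of the 4, library 1 of ARID1A_DBDmut also had a peak, and no other altered ARID1A list had a peak at any of the 4.

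In the genome the 1525 regions were spread over all chromosomes examined. Chromosome 5 held 144 among its 2225 merged regions (6.47%), followed by chromosome 7 (6.16%), chromosome 10 (6.11%) and chromosome 8 (6.06%). The lowest shares were on chromosome X (5 of 606, 0.825%), chromosome 19 (19 of 1589, 1.20%) and chromosome 22 (2.05%). The shared gain was also highest on chromosome 5 (10.2%) and lowest on chromosome X (1.16%). On chromosome 16, 2.15% of the merged regions belonged to the 1525 and 5.25% to the shared gain. Copy number of the chromosomes in AN3CA was not measured here, and no test was made across chromosomes.

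**Figure D5:**
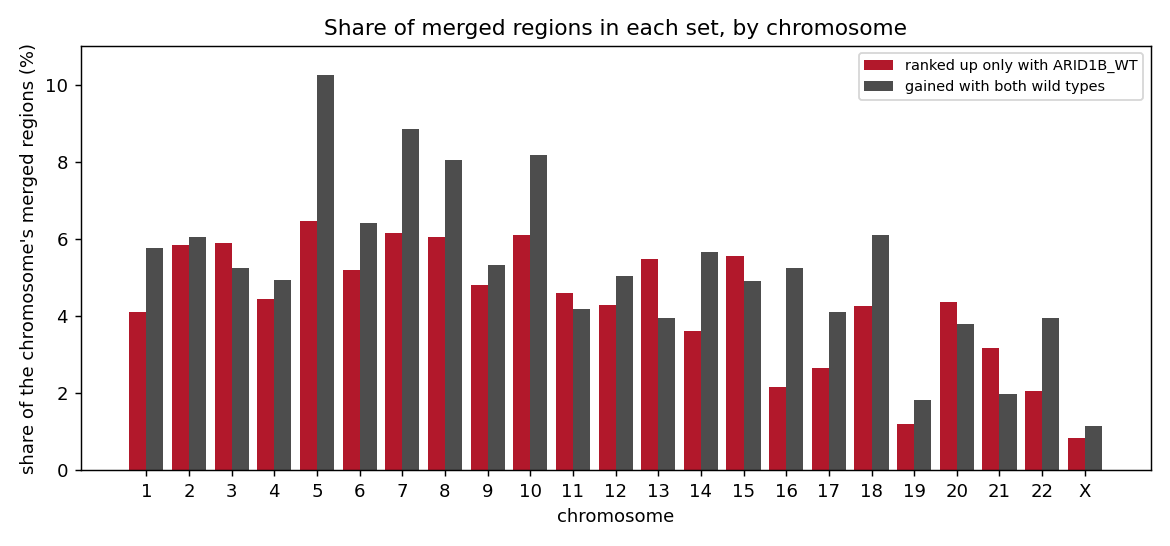
Bars give, for each chromosome on the x axis, the percent of its merged regions that belong to the 1525 regions ranked up only with ARID1B_WT or to the shared gain (y axis). Chromosome 5 is highest in both sets, at 6.47% and 10.2%, and chromosome X lowest, at 0.825% and 1.16%.

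Some of the regions lay near each other. The median distance from one of the 1525 regions to the nearest other was 298 kb, and 17.4% had another within 50 kb. Of the merged regions in neither gained set, 8.52% had one of the 1525 within 50 kb, with a median distance of 482 kb. For the shared gain the values were 16.7% and 299 kb, close to the values among the 1525 themselves. Groups of regions joined by gaps of at most 50 kb numbered 123 and held 267 of the regions (17.5%). The largest groups had 4 regions each, among them chr7:105525568-105557315, named after its values were seen, in which both ARID1B_S320_G327del libraries called 3 and both ARID1B_A457_G461del libraries called 1. Gene names, motifs and sequences at these hg19 positions were not analysed here.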

How the data were processed

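The 28 ATAC-seq libraries were used as deposited broad-peak lists, 1 per sample, on hg19. The submitters' processing notes name MACS2, which calls peaks, Bowtie2, SAMtools 0.1.19, Picard 2.8.0 and bcl2fastq. The sources used here do not give caller options, the control or any shift for the transposase cut site. The titles name ATAC-seq and were followed, although the series' design text describes CUT&Tag. For each peak the authors deposited a score, a fold enrichment (a ratio over the caller's background), a −log10 p-value and a −log10 q-value. In all but 59 of 1245967 peaks the deposited score was 10 times the −log10 q-value without its decimals. The smallest deposited −log10 q-value was 3.00 to 3.03 in every list, so the lists share 1 threshold. No counts of reads were used, and depth, which can also move list length, is unknown.

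Lists were ranked by −log10 p-value and trimmed to 19433 peaks, the length of the shortest list on chromosomes 1 to 22 and X, and overlaps of at least 1 bp were merged. Groups followed the titles. Shares of regions are given as mean ± SD over libraries, with 95% Wilson intervals that cover counting error only. Calls by altered ARID1B and altered ARID1A libraries were compared per region by Fisher's exact test (SciPy 1.17.1), two-sided, with Benjamini-Hochberg adjustment over all 32972 regions and a threshold of 0.05. The code was tested on simulated calls. The members, lists and settings were chosen with earlier results of these data known.

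Regions named are the 10 with the best mean rank in ARID1B_WT, the 5 best that no altered library called, those lacking in all ARID1A_WT and Empty_vector full-length lists (up to 5), and the 3 nearest to the rank threshold on each side. A further class, members called by all 8 altered ARID1B and no altered ARID1A library, was empty. Alternatives were full-length lists, lists cut to their best 9716 peaks, ranking by fold or −log10 q-value, a 50% overlap, Empty_vector of run C alone as control, a filter on regions no altered library called, each library left out, constructs as units and the replicate number as a block. The planned gene lists, motif counts, cell type markers and sequences need a genome and annotation of hg19 and were not used here, so the labelled cell type was not checked against markers.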

Additional observations from a re-analysis of the deposited data

How the results depend on the processing

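The number of regions was 3053 with full-length lists and 692 with the best 9716 peaks of each list, and within 1.5 times of 1525 in the other 12 settings. No setting gave a region of the set an adjusted p under 0.05 in either direction, over 38 settings. In the main setting even regions with full separation of the families did not pass, so this says little about single regions. The unadjusted count of 707 for altered ARID1B was 295 with the best 9716 peaks, 23 with constructs as units, 127 without ARID1B_S320_G327del and 469 to 865 without single libraries. Over all regions the counts in these settings were 797 (of 15698), 131, 579 and 1470 to 2559, beside 2309 in the main setting. Replicate numbers follow the run for ARID1A_CBR, ARID1A_DBDmut and ARID1A_delIDR1, with replicate 1 in run A and replicate 2 in run B. Over 45 pairs of altered constructs the correlation of deviations by replicate number ran from −0.0994 to 0.0749. A replicate block in the test gave a count of 469, against 1481 of all regions. The opposite count of 0 became 1 with ranking by fold and with the Empty_vector libraries of run C alone, and 0 to 1 without single libraries. The difference between families, 30.2 percentage points, was 24.4 with full-length lists, 28.7 with the best 9716 peaks, 26.0 with ranking by fold, 28.9 when a peak had to cover 50% of the region, 29.8 with Empty_vector of run C alone and 27.5 to 31.2 without single libraries. Within run E it was 18.0 and without ARID1B_S320_G327del 17.9, both chosen after seeing the data. The run E value rests on ARID1A_Y42S alone for ARID1A, a construct that called only 4.49% of the shared gain. The difference kept its sign in every setting, and the 4 ARID1B deletions kept their order with other lengths, rankings, overlap and controls. The place of ARID1B_Block13del did not: its 6.13% lay above every altered ARID1A construct, but on the regions chosen anew it was at 1.69% with full-length lists, below ARID1A_DBDmut (4.18%) and ARID1A_CBR (1.79%), and at 3.90% with the best 9716 peaks, below ARID1A_delIDR1 (5.49%). The cause was not tested. Depth limits presence: a weak site may lack a peak in a short list.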
